A study of Mus musculus with 3 samples.

Results

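The signal transducers and activators of transcription (STATs) are a family of cytokine-activated transcription factors, and the 6 members analysed here were Stat2, Stat3, Stat4, Stat5a, Stat5b and Stat6. They were taken by symbol from the 50600 genes of the deposited count tables, and all 6 were found. The tables hold the counts of 3 libraries made from the RNA of mouse Th1 (T-helper 1) cells, CD4 T cells that make interferon-gamma against intracellular pathogens. Per the labels they are primary cells of the C57BL/6NJ strain, with sex not collected and age unknown. The labels link a protocol for CD4+ T cell differentiation, and the file headers add a time of 2 hours without saying from which event it runs. All 3 libraries, biological replicates 1, 2 and 3, form 1 group with no second genotype, treatment or cell type to set it against. They have separate biosample entries and share 1 donor entry, and separate animals are not stated, so the spread between them, and any p-value built on it, refers to these samples and may in part be technical.

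A STAT protein lies idle in the cytoplasm until a cytokine binds its receptor and the Janus kinases attached to that receptor phosphorylate it. The phosphorylated proteins pair up, enter the nucleus and bind short palindromes in DNA. The receptors are selective: type I and type III interferons act through STAT2, IL-6, IL-21 and IL-10 mainly through STAT3, IL-12 through STAT4, IL-2, IL-7 and IL-15 through STAT5A and STAT5B, and IL-4 and IL-13 through STAT6. In helper T cells STAT4 is known for Th1 differentiation, STAT6 for Th2 differentiation, STAT3 for the Th17 and follicular helper programmes, and the STAT5 pair for growth and survival under IL-2.

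The 6 STAT genes lie on 3 chromosomes of the mm10 assembly. Stat6 (ENSMUSG00000002147, chr10:127642986-127660957, + strand) and Stat2 (ENSMUSG00000040033, chr10:128270559-128292849, + strand) are on chromosome 10. Stat5b (ENSMUSG00000020919, chr11:100780731-100850724, − strand), Stat5a (ENSMUSG00000004043, chr11:100859351-100885169, + strand) and Stat3 (ENSMUSG00000004040, chr11:100885098-100939540, − strand) follow one another on chromosome 11. Stat4 (ENSMUSG00000062939, chr1:51987148-52107189, + strand) is on chromosome 1. Stat5a and Stat5b are near copies in sequence. Aligned over the coding sequences of their principal transcripts in GENCODE vM21, they matched in 2125 of 2394 columns (88.8%), while the other 14 pairs among the 6 genes matched in 44.0% to 57.9%. Of the 50-base windows of the coding sequence, 26.1% in Stat5a and 26.3% in Stat5b were found unchanged in the other gene, and no other pair shared one. The longest identical stretch is shown because read pairs that lie wholly inside it cannot be told apart by sequence. It ran over 324 bases, coding positions 571 to 894 in both, spanning exons 7 to 9 of Stat5a (chr11:100874023-100874983, + strand) and exons 6 to 8 of Stat5b (chr11:100797741-100798701, − strand). Its first 300 bases follow, all in capitals since all are identical.
Stat5a and Stat5b shared coding run, positions 571 to 870: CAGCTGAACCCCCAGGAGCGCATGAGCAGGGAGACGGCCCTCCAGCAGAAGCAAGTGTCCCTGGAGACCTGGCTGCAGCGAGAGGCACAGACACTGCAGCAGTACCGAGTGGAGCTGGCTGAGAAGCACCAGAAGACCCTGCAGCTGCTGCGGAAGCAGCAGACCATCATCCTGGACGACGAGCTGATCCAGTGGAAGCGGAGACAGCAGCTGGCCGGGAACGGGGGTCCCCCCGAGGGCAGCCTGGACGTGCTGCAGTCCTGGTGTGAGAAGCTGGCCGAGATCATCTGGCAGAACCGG
How many pairs the aligner placed at either copy was not tested, and the separate values of Stat5a and Stat5b are uncertain to that extent.

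Promoter windows, 250 bases before to 50 bases after the start site, were read from RefSeq on GRCm38.p6. All 6 members matched, with 9 windows among them out of 32851. An interferon response pattern, GAAA and GAAA with 2 free bases between them, read on both strands, was present in 2 of the 9 windows and in 3.44% of all windows. Both windows are shown, since no other window of the family held a match, and capitals mark the matches to this and the other patterns searched.
Stat2 promoter window (chr10:128270248-128270547, + strand): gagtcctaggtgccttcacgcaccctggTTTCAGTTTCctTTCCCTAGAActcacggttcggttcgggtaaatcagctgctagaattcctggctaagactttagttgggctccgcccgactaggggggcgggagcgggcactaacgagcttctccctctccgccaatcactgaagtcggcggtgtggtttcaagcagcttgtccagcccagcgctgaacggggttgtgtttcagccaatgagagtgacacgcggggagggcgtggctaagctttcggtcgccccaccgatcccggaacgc
Stat4 second promoter window (chr1:52007990-52008289, + strand): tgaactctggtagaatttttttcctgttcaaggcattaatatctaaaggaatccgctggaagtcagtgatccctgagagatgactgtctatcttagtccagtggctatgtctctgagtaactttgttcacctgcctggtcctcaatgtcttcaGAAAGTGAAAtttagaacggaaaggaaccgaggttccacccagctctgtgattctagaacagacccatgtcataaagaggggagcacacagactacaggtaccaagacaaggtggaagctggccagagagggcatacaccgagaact
In the Stat2 window the match TTTCAGTTTC began 222 bases before the start site. It was followed after a short gap by TTCCCTAGAA, a match to the STAT palindrome TTC and GAA with 4 free bases between them. That pattern was found in 1 of the 9 windows and in 6.95% of all windows. In the Stat4 window GAAAGTGAAA began 97 bases before the start site. The palindrome with 3 free bases was in 0 of the 9 windows and in 8.30% of all windows. A match is a description of these letters and no evidence of binding.

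The libraries carried 4442901, 3123869 and 2950658 counts in replicates 1, 2 and 3. Genes with an exon lying across from an exon on the other strand, called opposed here, took 55.1%, 69.1% and 67.3% of the counts, and genes free of any overlap with the other strand took 38.7%, 25.6% and 27.8%. Replicate 1 therefore differed from the other libraries in what its counts were made of. TPM, the count per exon base scaled to the same sum in each library, was computed from the deposited counts, and it moves with that composition. Levels were also given after TMM scaling, edgeR's correction for composition. The mitochondrial genes bear on the strand that was counted. mt-Nd6, known as the only mitochondrial mRNA encoded on the opposite strand to the others, had 31858, 22709 and 31808 counts in replicates 1, 2 and 3, or 28048, 23326 and 36098 TPM. mt-Co1, an mRNA of the other mitochondrial strand, had 13937, 6092 and 4601 counts, or 4122, 2102 and 1754 TPM, and mt-Cytb and mt-Nd1 were lower still. The counts may therefore not represent the sense strand, and without the reads this was not tested. Every level given here, those of the STAT genes included, is a level of pairs assigned to a gene under the deposited strand setting, and is a level of that gene's mRNA only if the setting matched the libraries.

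All 8 general T cell markers, among them Cd4 and Lck, were at 1 TPM or more throughout, and their median was 167 ± 81.9 TPM (SD, n = 3). Of 5 Th1 markers, 2 were at that level, Il12rb2 (opposed) and Tbx21. Ifng, the signature cytokine of Th1 cells, had 1, 2 and 0 counts in replicates 1, 2 and 3, and Cxcr3 had 6, 2 and 2. Markers of other cells were mixed: 5 of 6 B cell markers had no count while Cd79a had 36.4 ± 11.1 TPM, 2 of 6 myeloid markers reached 1 TPM, Cd68 at 7.23 ± 1.39 TPM and Csf1r (opposed) at 158 ± 25.3 TPM, level with Stat6, while Lyz2 and S100a9 had no count, and 2 of 6 markers of CD8 and natural killer cells (Prf1 and Cd8b1) did so while Ncr1, Klrb1c and Gzmb had no count. Summed over each list in replicates 1, 2 and 3, the B cell markers came to 27.0, 48.7 and 33.6 TPM, the myeloid markers to 177, 137 and 181 TPM, and the CD8 and natural killer markers to 24.5, 11.5 and 12.6 TPM. Their part in the STAT levels was not tested. In bulk RNA, fewer cells that express a gene and less RNA per cell cannot be told apart.

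By the deposited counts, Stat6 had the highest level of the 6 genes and Stat2 the lowest, and all 6 were at 1 TPM or more in every library. Stat6, the mediator of IL-4 signals, had 2087, 975 and 1066 counts in replicates 1, 2 and 3, which is 217, 118 and 143 TPM, averaging 159 ± 51.3 TPM (SD, n = 3). Its level was above that of 98.1% of protein-coding genes. Stat5b, activated by IL-2 family cytokines, had 757, 348 and 382 counts, or 62.4, 33.5 and 40.6 TPM, with a mean of 45.5 ± 15.1 TPM. Stat3, activated by IL-6, IL-21 and IL-10, had 893, 374 and 406 counts, or 42.8, 20.9 and 25.1 TPM, with a mean of 29.6 ± 11.6 TPM. Stat3 had more counts than Stat5b in each library and fewer per exon base, because its exons are listed at 9527 bases against 5539 in Stat5b. Stat5a, the near copy of Stat5b, had 423, 217 and 177 counts, or 27.1, 16.2 and 14.6 TPM, with a mean of 19.3 ± 6.79 TPM. Stat4, the mediator of IL-12 signals, had 197, 80 and 88 counts, or 23.2, 11.01 and 13.4 TPM, with a mean of 15.9 ± 6.49 TPM. Stat5a and Stat4 thus lay close together, at the 86.2 and 84.1 percentiles of protein-coding genes. Stat2, which joins the interferon complex ISGF3, had 72, 31 and 34 counts, or 5.55, 2.79 and 3.38 TPM, with a mean of 3.91 ± 1.45 TPM and a percentile of 68.4. Replicate 1 was the highest library for each of the 6, and replicate 2 was the lowest for 5, with Stat5a lowest in replicate 3. The share of all tested genes that were lowest in replicate 2 was not counted, so that count of 5 is a description only.

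**Figure D1:**
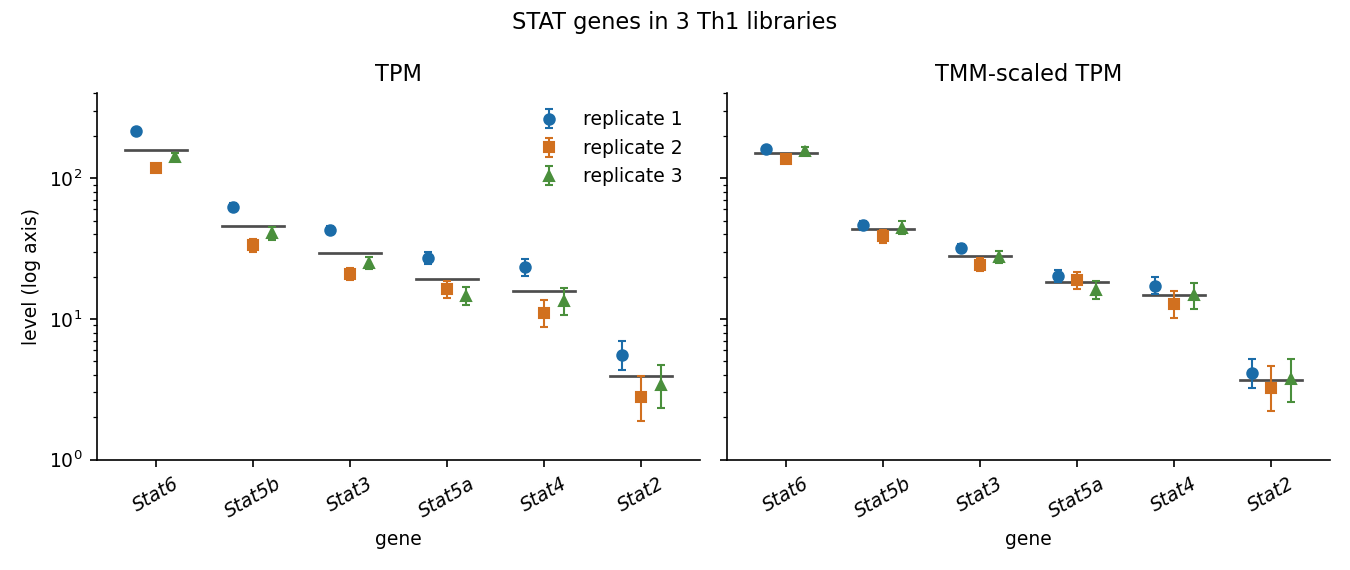
Level of the 6 STAT genes (log axes) in the 3 Th1 libraries as TPM, left, and as TMM-scaled TPM, right, with one point per replicate, an exact Poisson counting interval (95%) on each point and a bar at the mean. Stat6 stands highest at 118 to 217 TPM and Stat2 lowest at 2.79 to 5.55 TPM, and the replicates of a gene lie closer together in the right panel.

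Counting error was narrow beside the distance between most members. Exact Poisson intervals (95%, counting error only) for Stat6 ran from 207 to 226 TPM in replicate 1, 111 to 126 TPM in replicate 2 and 134 to 151 TPM in replicate 3. For Stat2 they ran from 4.34 to 6.99 TPM, 1.89 to 3.96 TPM and 2.34 to 4.72 TPM. Replicates 2 and 3 thus could not be separated at this depth, and the interval of replicate 3 also overlapped that of replicate 1. Stat4 was the other gene with few counts, with intervals of 20.1 to 26.7 TPM, 8.73 to 13.7 TPM and 10.7 to 16.5 TPM.

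In TPM, Stat6 made up more than the other members analysed here together. The 6 genes summed to 378, 203 and 239.7 TPM in replicates 1, 2 and 3. Stat6 held 57.3%, 58.3% and 59.5% of that sum, a mean of 58.4% ± 1.08 (SD, n = 3). Stat5b held 16.7% ± 0.237, Stat3 10.7% ± 0.544, Stat5a 7.09% ± 0.958, Stat4 5.73% ± 0.378 and Stat2 1.42% ± 0.0469. These shares rest on the deposited exon length. Without length correction (mean CPM), Stat6 had 381, against 153 for Stat3, 137 for Stat5b, 74.9 for Stat5a, 33.3 for Stat4 and 12.6 for Stat2. On that scale the other members together exceeded Stat6. Shares with other lengths were not computed. The share of each gene moved less between libraries than its TPM did. The coefficient of variation of TPM was between 32.2% and 40.8% for the 6 genes, and after TMM scaling it was between 8.33% and 15.0%. On the TMM scale Stat6 had 161, 137 and 157 in replicates 1, 2 and 3, and Stat2 had 4.12, 3.24 and 3.71, so the libraries lay closer together than in TPM.

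The order of the levels was Stat6, Stat5b, Stat3, Stat5a, Stat4 and Stat2, and each step had the same direction in 3 of 3 libraries. With 3 libraries an exact two-sided sign-flip test cannot go below p = 0.25, which all 5 steps reached (adjusted p = 0.25 over the 5), so no step could pass a threshold of 0.05. The widest steps were at the ends. Stat6 stood above Stat5b by a log2 ratio of 1.79, 1.82 and 1.81 in replicates 1, 2 and 3, which averaged 1.81 ± 0.012 (SD, n = 3) or 3.50-fold. Stat4 stood above Stat2 by 2.07, 1.98 and 1.99, a mean of 2.01 ± 0.048 or 4.03-fold. Both ratios had a spread between libraries that was a small part of their size. The middle steps were smaller. Stat5b over Stat3 had log2 ratios of 0.54, 0.68 and 0.69, a mean of 0.64 ± 0.083. Stat3 over Stat5a had 0.66, 0.37 and 0.78, a mean of 0.60 ± 0.21. Stat5a over Stat4 had 0.22, 0.56 and 0.13, a mean of 0.30 ± 0.23. This last step was about as large as its own spread, and the ratio of TPM in single libraries had counting intervals (95%) of 0.982 to 1.39 in replicate 1, 1.13 to 1.93 in replicate 2 and 0.841 to 1.43 in replicate 3, which include equality in replicates 1 and 3. Stat5a and Stat4 were therefore not placed in order.

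The middle steps from Stat5b to Stat3 and from Stat5a to Stat4 also depended on the length used. The exon length in the tables joins the exons of every annotated transcript. With the length of the longest protein-coding transcript instead, Stat5b over Stat3 had a mean log2 ratio of 0.070, and with the coding length it was -0.17, so that Stat3 came out above Stat5b. Stat4 shares 1033 exon bases, 26.7% of its exons, with the noncoding gene Gm28177 on its own strand. With those bases taken out of its length, Stat5a over Stat4 was -0.15. It was 0.80 with the longest protein-coding transcript and 1.10 with the coding length, both wider than with the exon length. These lengths were chosen after the data had been seen. The steps from Stat6 to Stat5b and from Stat4 to Stat2 kept their direction under every length tried. Between the near copies, Stat5b over Stat5a had log2 ratios of 1.20, 1.05 and 1.47, a mean of 1.24 ± 0.22 or 2.36-fold, subject to the shared sequence above. Between the mediators of Th2 and Th1 differentiation, Stat6 over Stat4 had log2 ratios of 3.22, 3.42 and 3.41, a mean of 3.35 ± 0.11 or 10.2-fold. This was the direction in all 3 libraries, given as a description with no test.

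**Figure D2:**
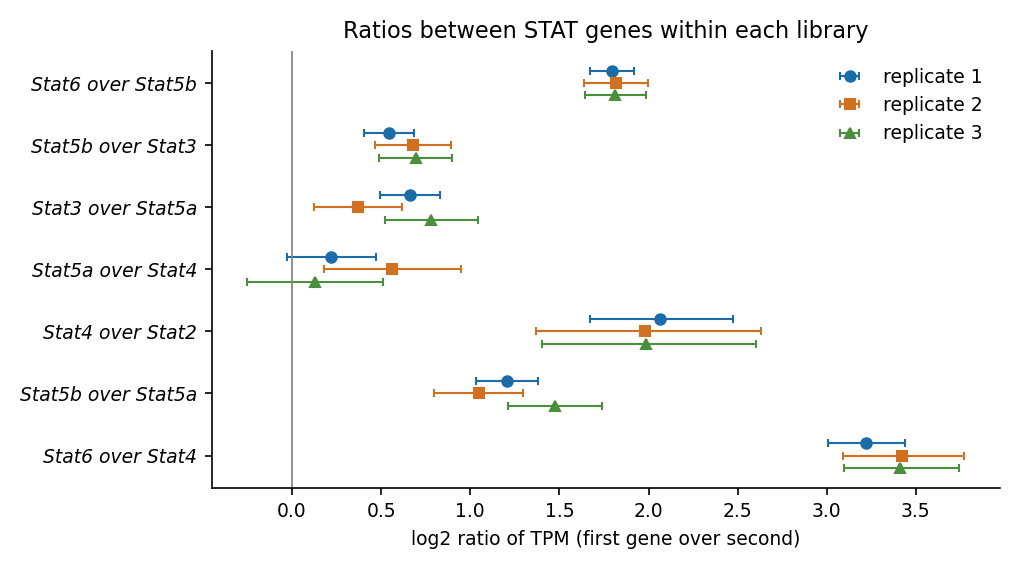
Log2 ratio of TPM between STAT genes, with one point per replicate and its counting interval (95%), first for the 5 neighbouring pairs in the order of levels and then for Stat5b over Stat5a and Stat6 over Stat4. The ratios of Stat6 over Stat5b (mean 1.81) and Stat4 over Stat2 (mean 2.01) lie far from 0, whereas the intervals of Stat5a over Stat4 (mean 0.30) include 0 in replicates 1 and 3.

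No STAT gene was called as more variable between the libraries than other genes of its abundance. The edgeR test of the deviance at the trended dispersion called 0 of the 6 (unadjusted p between 0.761 and 0.921, 0 of 6 under 0.05, and 0 of 6 with DESeq2 size factors), against 0.253% of the 9469 genes tested (24 genes) after adjustment and 6.44% before it. The typical biological coefficient of variation in these libraries was 28.0%. Set against counting noise alone, a chi-square test of the counts with TMM scaling passed for 3 of the 6, against 59.6% of all genes tested, so the share in the family was near the background. Those were Stat3 (adjusted p = 0.00012), Stat6 (adjusted p = 0.000474) and Stat5b (adjusted p = 0.0427). Stat5a (adjusted p = 0.0689), Stat4 (adjusted p = 0.0994) and Stat2 (adjusted p = 0.589), the members with fewer counts, did not pass it. The count of 3 fell to 1, Stat6, without replicate 1, and was 2 without replicate 2 or without replicate 3. Over all genes tested the share also fell, to 25.6% without replicate 1, 42.4% without replicate 2 and 47.3% without replicate 3.

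All 6 genes were highest in replicate 1 by TPM, which was also the case for 70.9% of the genes tested, and all 6 remained highest there after TMM scaling, against 42.4%. Before that scaling, replicate 1 exceeded the mean of replicates 2 and 3 between 1.66-fold (Stat6) and 1.91-fold (Stat4), where the median of the tested genes was 1.59-fold. After it the excess was 1.09-fold for Stat6, 1.11-fold for Stat5b, 1.15-fold for Stat5a, 1.18-fold for Stat2, 1.22-fold for Stat3 and 1.25-fold for Stat4, beside a median of 1.04-fold. All 6 thus lay above the median of the tested genes on both scales. The part that the lower share of opposed genes in replicate 1 has in it was not tested.

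Candidates for the nearest profile were the 57 genes of the lists with a mean count of 50 or more (56 for a member that is itself one of them). They included the members except Stat2, whose mean count was lower. The candidate whose profile over the 3 libraries lay nearest was another STAT gene for 4 of the 6, which form mutual pairs. How often genes of the other lists lay nearest to one of their own list was not counted. Likeness was the root mean square distance of log2 TMM-scaled deviations from each gene's own mean. Stat5b and Stat6 were nearest to each other at 0.0099, and Stat3 and Stat4 were nearest to each other at 0.018. Stat2 lay nearest to Lck, the kinase of the T cell receptor, at 0.011, and Stat5a nearest to Jak2, a Janus kinase, at 0.034. With 3 libraries a profile has little room to differ, and no test was made of these distances.

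The exons of 3 STAT genes touched a gene on the other strand, and the shared stretches were short. Opposed exons occurred in 22.1% of protein-coding genes. Stat3 and Stat5a meet tail to tail and share 72 exon bases, 0.756% of the exons of Stat3 and 1.01% of those of Stat5a. Stat6 meets the tail of Nab2 (chr10:127660918-127668568, − strand), a corepressor of the EGR transcription factors, and shares 40 bases, 0.909% of its exons. Stat2, Stat4 and Stat5b had no opposed exon. Stat5b and Stat5a stand 8627 bases apart and point away from each other. The nearest genes beside Stat2, Apof and Il23a, had no count in any library.

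Nab2 stood at a higher level than Stat6. It had 2784, 1392 and 1616 counts in replicates 1, 2 and 3, or 433, 252 and 324 TPM, and Stat6 had 0.501, 0.468 and 0.441 times its count per exon base. In TPM both were highest in replicate 1, as most tested genes were, but after TMM scaling Nab2 had 321, 293 and 355 and was highest in replicate 3. Of the exon bases of Nab2, 42.2% are opposed, the 40 shared with Stat6 among them. Inside its span lies the antisense gene Gm16229 (chr10:127663839-127665484, + strand), 2882 bases beyond the end of Stat6 on the strand of Stat6, with 20332, 28226 and 21147 counts, or 7541, 12214 and 10110 TPM. Gm16229 was lowest in replicate 1 in TPM and after TMM scaling, where Stat6 was highest on both scales. Its spread was not beyond the dispersion trend (edgeR, adjusted p = 0.957). Opposed genes as a whole, of which Gm16229 is one, also had their lowest share of the counts in replicate 1 (55.1%). The antisense gene held more counts than the protein-coding gene across from it in all 3 libraries, and the limit on the strand given above applies to both.

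Around Stat4 the counts on the other strand were below those of Stat4 in each library, but per exon base they were not always below. Gm3940, a processed pseudogene inside a Stat4 intron, had 2, 5 and 10 counts in replicates 1, 2 and 3, or 2.12, 6.17 and 13.6 TPM, on 432 exon bases. Stat4 had 10.99, 1.79 and 0.982 times its count per exon base, so the 2 genes were level in replicate 3. Gm31812, a noncoding gene on the other strand, faces Stat4 tail to tail at a distance of 932 bases. It had 27, 51 and 27 counts, or 10.5, 23.2 and 13.6 TPM. It was highest in replicate 2, where Stat4 was lowest, but its spread was not beyond the dispersion trend (edgeR, adjusted p = 0.733). Gm28177, which overlaps Stat4 on its own strand, had 4, 0 and 0 counts. Pairs that fall on exons listed for both genes are left uncounted by default in the counting program used, so the level of Stat4 is uncertain on that side.

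**Figure D3:**
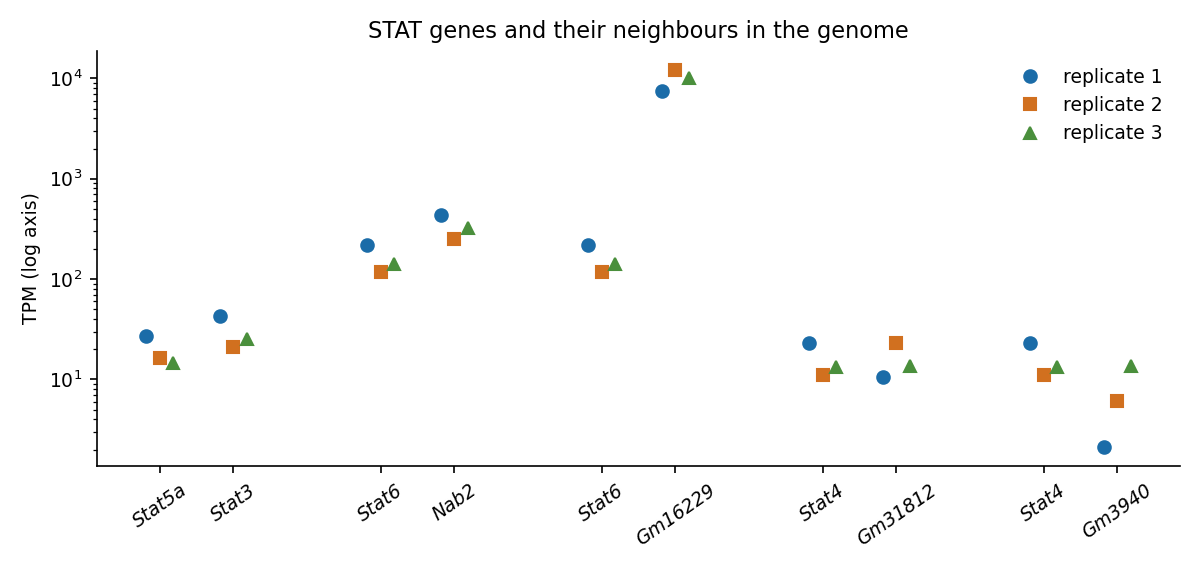
TPM (log axis) of STAT genes, each beside a gene that adjoins or overlaps it, with one point per replicate of the Th1 libraries. Gm16229 lies at 7541 to 12214 TPM, above Nab2 at 252 to 433 TPM and Stat6 at 118 to 217 TPM, and Gm3940 spreads from 2.12 to 13.6 TPM beside Stat4.

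The pathway around the STATs was described with 84 genes in 13 lists of receptors, kinases, partners, brakes and targets. Of these, 60 (71.4%) reached 1 TPM in every library, against 38.7% of 21764 protein-coding genes, and 7 had no count. A total of 52 entered the edgeR test, which called 0 of them beyond the dispersion trend (0 at an unadjusted p under 0.05, and 0 with DESeq2 size factors). Counting noise was exceeded by 35 of the 52 (67.3%), against 59.6% of all genes tested, and 46 of the 52 were highest in replicate 1 by TPM, against 70.9%. Exons of 24 of the 84 were opposed, and these are named as opposed where they appear.

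The Janus kinases, which phosphorylate the STATs, were all detected, at a median of 56.3 ± 21.2 TPM (SD, n = 3). Jak1, the kinase common to most of these receptors, had 128 ± 47.8 TPM and Jak2, which serves the IL-12 receptor, had 100.4 ± 37.1 TPM. Jak3, the partner of the common gamma chain, had 12.2 ± 5.31 TPM, and Tyk2, the kinase that pairs with Jak1 at the type I interferon receptor and with Jak2 at the IL-12 receptor, had 6.39 ± 2.38 TPM. Jak1 and Tyk2 are opposed. In each library Stat6 lay above Jak1, which had 182, 109 and 91.9 TPM in replicates 1, 2 and 3. Stat2 lay below Tyk2, which had 8.92, 6.06 and 4.20 TPM.

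Receptor chains were uneven from one STAT to the next. For STAT2, the type I interferon receptor chains Ifnar1 and Ifnar2 had 22.1 ± 12.5 and 8.93 ± 4.89 TPM, and the type III chain Ifnlr1 had no count, which allows up to 3 counts in each library. For STAT4, 1 of the 2 chains of the IL-12 receptor reached 1 TPM in every library. Il12rb2, the signalling chain, had 9.51, 16.4 and 9.63 TPM in replicates 1, 2 and 3, but 40.0% of its exon bases are opposed. It was highest in replicate 2, where Stat4 was lowest, and its spread was not beyond the dispersion trend (edgeR, adjusted p = 0.776). Opposed genes as a whole also had their highest share of the counts in replicate 2 (69.1%). Il12rb1, the chain that binds Tyk2, had 3, 2 and 0 counts.

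For STAT3, 6 of 7 receptor chains reached 1 TPM. Il21r, the IL-21 receptor, led with 148 ± 59.0 TPM, followed by Il27ra (opposed) with 32.4 ± 13.3 TPM, the shared signalling chain Il6st with 24.5 ± 9.18 TPM and Il6ra (opposed) with 20.7 ± 7.75 TPM. The IL-23 receptor gene Il23r had no count. For STAT5A and STAT5B, 5 of 6 chains reached 1 TPM. The common gamma chain Il2rg had 113 ± 53.8 TPM, the IL-2 receptor alpha chain Il2ra 44.5 ± 21.1 TPM, the IL-7 receptor Il7r 32.9 ± 12.2 TPM and the beta chain Il2rb 16.8 ± 9.69 TPM, while Il9r had no count. For STAT6, Il4ra (opposed), the IL-4 receptor chain, had 78.1 ± 37.8 TPM, and Il13ra1, which with it forms the receptor for IL-13, had 3, 2 and 1 counts. In T cells the IL-4 receptor joins Il4ra to the common gamma chain Il2rg, given above, so both chains of that receptor were above 1 TPM.

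Nuclear partners were present for the family as a whole, with 5 of 5 at 1 TPM or more and a median of 11.7 ± 2.23 TPM. Irf9, which completes ISGF3 with STAT2, had 6.43 ± 2.32 TPM. It stood above Stat2 in each library, with 9.08, 4.75 and 5.47 TPM in replicates 1, 2 and 3 against 5.55, 2.79 and 3.38 TPM. The acetyltransferases Crebbp and Ep300 had 12.3 ± 2.09 and 12.1 ± 1.97 TPM, and Nmi, a STAT-binding protein, had 25.7 ± 9.46 TPM. Ncoa1 (opposed) was the lowest of the list at 4.51 ± 2.13 TPM.

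Brakes on the pathway reached 1 TPM in every library in 15 of 17 cases, with a median of 11.3 ± 4.21 TPM. The tyrosine phosphatase Ptpn6 (SHP-1, opposed) had 158 ± 65.3 TPM, a level like that of Stat6. Socs1, an inhibitor of the Janus kinases that cytokines themselves induce, had 83.5, 27.5 and 72.9 TPM in replicates 1, 2 and 3. The phosphatases Ptpn2 and Ptpn1 had 45.2 ± 14.7 and 35.7 ± 12.6 TPM. At the low end, Socs2, itself a target of STAT5, had 0, 1 and 0 counts, and Pias3 (opposed), named for its inhibition of STAT3, had 13, 6 and 6 counts.

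The medians of the target lists ran from 8.62 TPM for STAT5 to 0.498 TPM for STAT2. With opposed targets left out, they were 13.7 TPM for STAT3, 1.46 TPM for STAT4, 1.18 TPM for STAT6 and 0.419 TPM for STAT2. Of the 7 STAT3 targets 6 are opposed, so the STAT3 value is that of Batf alone. The order of the lists therefore depended on whether opposed genes were included. Of 7 STAT5 targets, 7 were at 1 TPM or more throughout (median 8.62 ± 3.02 TPM). They included the survival kinase Pim1 (opposed) at 133 ± 60.9 TPM and the cyclin Ccnd2 (opposed) at 98.5 ± 33.2 TPM. The other 5 lay between 3.60 TPM, for Osm, and 10.9 TPM. The median of the 3 unopposed targets was 5.99 TPM, and Socs2, counted above among the brakes, is a STAT5 target near 0. Of 7 STAT3 targets, 4 did so (median 2.30 ± 0.727 TPM), led by the AP-1 factor Junb (opposed) at 312 ± 109 TPM and its partner Batf at 13.7 ± 6.09 TPM, with Maf (opposed) lowest at 0.602 ± 0.395 TPM. Of 5 STAT6 targets, 3 did so (median 2.35 ± 1.09 TPM): the chemokine receptor Ccr8 at 43.0 ± 7.36 TPM, the Th2 factor Gata3 (opposed) at 5.28 ± 1.86 TPM and Nfil3 at 2.35 ± 1.09 TPM. The Th2 cytokine genes Il13 and Il24 had no count. The STAT6 targets thus ranged from genes without a count to Ccr8, whose level was above that of 92.9% of protein-coding genes.

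Of 7 STAT4 targets, 4 reached 1 TPM (median 2.53 ± 0.997 TPM). They were the protease Furin (opposed) at 11.2 ± 3.97 TPM, Gadd45g at 8.02 ± 6.66 TPM, the IL-18 receptor chain Il18r1 at 4.98 ± 1.09 TPM and Tbx21, the master regulator of Th1 cells, at 2.53 ± 0.997 TPM on 19, 7 and 11 counts. Ifng, Hlx and Il18rap had at most 2 counts in any library. Of 12 STAT2 targets, the interferon-stimulated genes, 3 reached 1 TPM, and the median of 0.498 ± 0.197 TPM was the lowest of the 13 lists. Bst2 had 42, 5 and 25 counts, Isg15 had 23, 12 and 6, and Irf7 (opposed) had 69, 54 and 46. Mx1 and Ifi44, antiviral genes, had no count. Most genes of this list thus lay near the floor of 3 counts, so a difference between the libraries was not detectable in them at this depth.

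**Figure D4:**
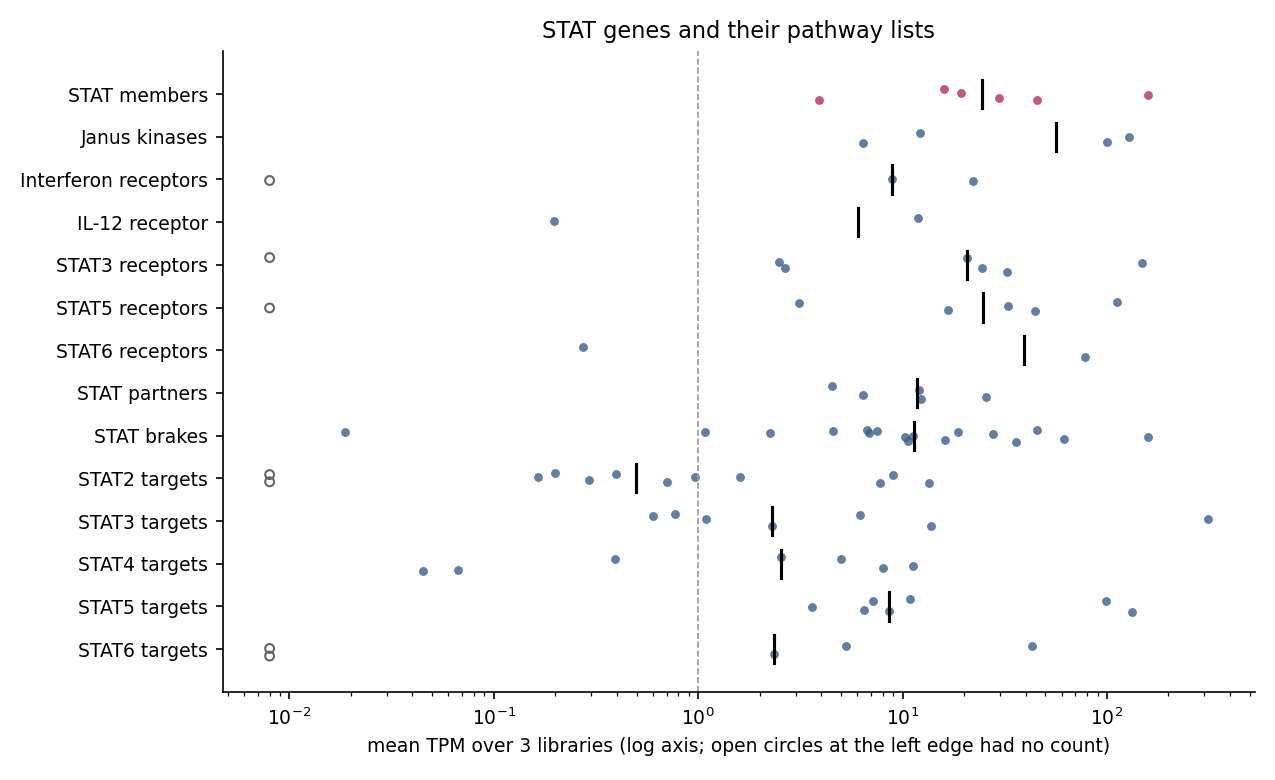
Mean TPM (log axis) of the STAT and pathway genes, one point per gene over the 3 Th1 libraries in rows by list, with open circles for genes without a count, a dashed line at 1 TPM and a black bar at the median of each list, taken in each library and averaged. The bar is highest for the Janus kinases, at 56.3 TPM, and lowest for the STAT2 targets, at 0.498 TPM.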

How the data were processed

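Total RNA of 3 Th1 cell libraries was sequenced, and the authors deposited raw read-pair counts per gene for each. Per the file headers, reads were aligned as stranded pairs and counted over exons of GENCODE vM13 genes on mm10 with featureCounts v1.4.6-p4 at strand setting 1, both mates required; no normalization is stated there. The deposited exon length of each gene, in bases, served for TPM, which was computed here over all 50600 genes, since the design had been written for TPM values from the authors. Symbols and biotypes came from GENCODE vM21, matched by identifier (99.56%). Pathway genes and members were named from lists chosen with earlier results of these data known. The family has a further member that is not reported here.

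Spread was tested in edgeR 4.0.16 (R 4.3.3) with TMM scaling, an intercept and a minimum count of 10 (9469 genes): the deviance at the trended dispersion, and a chi-square test of counting noise, both with 2 degrees of freedom, one-sided, Benjamini-Hochberg adjusted at 0.05. DESeq2 1.42.0 size factors, library totals, no filter, common dispersion and each library left out were the alternatives. Both tests were tried on simulated data. Exon overlap came from bedtools 2.31.1, alignments from Biopython 1.88 (match 1, mismatch -1, gap opening -4, extension -0.5). Named were all members, some of their adjoining genes, the genes nearest in profile, and in each pathway list up to 4 of the highest, the lowest, and those without a count. Of the marker lists only some genes were named. The depth, 2950658 to 4442901 counts, sets the exact two-sided 95% intervals, which cover counting error only; for 0 counts the one-sided floor of 3 counts is used instead.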

Additional observations from a re-analysis of the deposited data

How the results depend on the processing

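No paired analysis was possible because all 3 libraries form 1 group. The level of each member moved by more than its spread between libraries in CPM with no length correction (Stat2 12.6, Stat3 153, Stat4 33.3, Stat5a 74.9, Stat5b 137 and Stat6 381), in TPM over genes free of overlap with the other strand plus the member (19.1, 144, 77.2, 95.6, 225 and 787 in the same order) and, for Stat3 and Stat5a, with the longest protein-coding transcript (46.7 and 35.4 TPM), because the divisor differs. With a library left out, mean levels ranged from 3.08 to 4.47 TPM for Stat2 and from 130.4 to 179.6 TPM for Stat6. The log2 ratio of Stat5b over Stat3 turned to -0.14 with no length correction and to -0.17 with the coding length, and Stat5a over Stat4 turned to -0.15 with exon bases not shared on the same strand. Stat5a over Stat4 rose to 0.80 with the longest protein-coding transcript, 1.10 with the coding length and 1.18 with no length correction. No member was beyond the dispersion trend in any setting run. Among all genes, 24 were, against 44 of 19067 without the filter and 3 to 21 with a library left out (21, 3 and 8 without replicates 1, 2 and 3). Counting noise was exceeded by 3 members, against 5 with library totals, 2 with DESeq2 size factors and 1 to 2 with a library left out. Over all genes the count was 5642, against 7125 with library totals, 5427 with DESeq2 size factors and 2476 to 4816 with a library left out, so the members moved with the background. Without replicate 2 the test passed for Stat3 and Stat5a, and without replicate 3 for Stat3 and Stat6. At 5 TPM in place of 1 TPM, 36 of the 84 pathway genes reached the level in every library, beside 24.9% of protein-coding genes. With unopposed genes only, 6 list medians moved by more than their spread between libraries. They were those of the STAT3, STAT4 and STAT6 targets, the STAT3 and STAT6 receptors and the IL-12 receptor. Depth limits Stat2, which rests on 31 to 72 counts per library, and list genes with fewer.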
